A study of Homo sapiens with 42 samples.

Results

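The 9 genes described here make, sense, carry and remove extracellular adenosine in 786-O cells: ENTPD1, NT5E, ADORA1, ADORA2A, ADORA2B, SLC29A1, SLC29A2, ADK and ADA. They were taken by gene symbol from 60609 genes counted in each of 42 poly-A RNA-seq libraries, and all 9 were found in every library. 786-O is a line of clear cell renal carcinoma that lacks VHL, the ubiquitin ligase subunit that marks HIF-α proteins for destruction. It therefore holds stable HIF-2α under normal oxygen, and it makes no functional HIF-1α. Every group, the wild-type (WT) control included, carried this background.

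The libraries came in 2 batches, and each group held 3 of them. Batch 1 held WT cells, a HIF-1β knock-in line (HIF-1β KIN, clone A21), a HIF-2α knock-in line (HIF-2α KIN, clone A31) and 6 lines with a transgene. Each KIN line was 1 clone whose endogenous alleles carried a V5-Halo tag, so a value that belongs to the clone and a value that belongs to the tag cannot be told apart. The transgene lines were WT cells that stably made a Halo-tagged HIF-α from the weak L30 promoter, at levels that varied from cell to cell. They made HIF-1α, HIF-1α R30E (a DNA-binding mutant), HIF-1αDM (a dimerization mutant), HIF-2α, HIF-2α R27E (a DNA-binding mutant) or HIF-2αDM (a dimerization mutant). Batch 2 held WT cells again and lines with HIF-1α, HIF-2α and the chimeras HIF-2α/1α and HIF-1α/2α. A chimera is named first for its structured domains, which bind DNA and the partner HIF-1β, and then for its intrinsically disordered region (IDR), which holds the activation domains. The batches differed in RNA extraction and library kit, so levels were not compared between them.

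The libraries of batch 1 held between 42377599 and 101186554 counts, and those of batch 2 between 76366799 and 109642159. Counts were scaled within a batch (normalized counts), and 23410 genes in batch 1 and 28724 in batch 2 passed a filter on low counts, all 9 members among them. HIF1A averaged 242 ± 13.5 normalized counts (SD, n = 3) in WT cells of batch 1 and between 2249 and 3038 in the 3 lines with a HIF-1α transgene. EPAS1, which encodes HIF-2α, averaged 14498 ± 2022 in the same WT cells and between 44695 and 56676 in the 3 lines with a HIF-2α transgene. The HIF-2αDM libraries, named by their titles since another label gives them a HIF-1α genotype, were among the latter and had HIF1A at 193 ± 15.0. In the HIF-2α KIN clone EPAS1 stood at 6177 ± 497, a log2 change of -1.23 that was called (edgeR's adjusted p = 0.000101). This is RNA, and the paper reports from western blots that tagged HIF-2α protein of clone A31 was near the WT level. Of 8 renal markers, 7 were over 3 counts in every library, and the exception was CA9. The summed level of 5 leukocyte markers ran from 8.57 to 67.3 in batch 1 and from 35.6 to 81.3 in batch 2, with CD3E at or under 3 counts throughout. That of 4 endothelial markers ran from 0 to 17.6 and from 4.04 to 49.9.

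Cells under stress release ATP, and enzymes on the cell surface cut it in steps. ENTPD1 (CD39) removes phosphates from ATP and ADP to leave AMP, and NT5E (CD73) turns AMP into adenosine. Adenosine then binds G protein-coupled receptors, of which ADORA1 lowers cyclic AMP while ADORA2A and ADORA2B raise it. The equilibrative transporters SLC29A1 (ENT1) and SLC29A2 (ENT2) carry adenosine across the membrane. Inside the cell ADK phosphorylates it back to AMP, and ADA deaminates it to inosine. NT5E and ADORA2B are textbook HIF targets in hypoxic epithelia, and HIF dimers bind DNA at a short core motif, ACGTG or GCGTG.

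Promoter sequences are shown for the 3 members whose changes carry most of what follows. They are the 250 bases before the annotated start, from RefSeq on GRCh38.p14, written 5′ to 3′ on the gene's strand, with ACGTG or GCGTG on either strand in capitals. The NT5E window is chr6:85449833-85450082 (plus strand) and holds neither motif. It lies inside the gene span that GENCODE gives, which begins at chr6:85449584. The bases before that GENCODE start were not searched, so the lack of a motif holds for this window only. That of ADORA2B, chr17:15944880-15945129 (plus strand), holds 1 GCGTG that begins 229 bases before the start. SLC29A1, at chr6:44219365-44219614 (plus strand), holds ACGTG on both strands, overlapping as CACGTG, from 245 bases before the RefSeq start. The end of this window runs into the GENCODE span, which begins at chr6:44219553.
NT5E: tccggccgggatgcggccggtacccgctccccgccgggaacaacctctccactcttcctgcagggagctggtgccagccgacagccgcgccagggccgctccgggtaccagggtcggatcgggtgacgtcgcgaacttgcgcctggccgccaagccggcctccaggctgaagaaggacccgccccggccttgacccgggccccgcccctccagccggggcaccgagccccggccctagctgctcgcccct
ADORA2B: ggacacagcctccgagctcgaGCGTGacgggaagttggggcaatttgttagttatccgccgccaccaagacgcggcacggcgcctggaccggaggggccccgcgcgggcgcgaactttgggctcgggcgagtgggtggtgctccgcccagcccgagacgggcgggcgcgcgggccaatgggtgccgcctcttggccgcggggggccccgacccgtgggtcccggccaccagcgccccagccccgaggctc
SLC29A1: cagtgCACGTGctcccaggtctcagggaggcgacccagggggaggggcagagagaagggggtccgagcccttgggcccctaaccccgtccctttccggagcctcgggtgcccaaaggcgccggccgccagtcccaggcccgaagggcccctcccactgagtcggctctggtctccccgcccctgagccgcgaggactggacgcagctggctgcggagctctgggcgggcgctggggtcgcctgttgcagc
Either motif was present in 43.2% of 35116 such windows over all genes (ACGTG in 18.5%, GCGTG in 32.2%). RefSeq windows were given for 7 members (13 windows), and 5 of the 7 had a match in 1 window. A match is a run of letters and not a measured binding site. ADORA2A and SLC29A2 had no entry.

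In WT cells the members covered a wide range of levels. Per kilobase of the canonical transcript, the order in batch 1 began with ADORA1 at 2610 ± 420 normalized counts per kb (SD, n = 3) and SLC29A1 at 2523 ± 158, whose ranges of mean ± SD overlapped. ADK followed at 1194 ± 96.2, then NT5E at 793 ± 35.7 and ADA at 718 ± 42.9, which also overlapped. ADORA2B stood at 218 ± 68.4. The low end held SLC29A2 at 24.3 ± 0.878, ENTPD1 at 6.99 ± 1.29 and ADORA2A at 2.02 ± 0.931. Batch 2 put SLC29A1 (3283 ± 96.0 per kb) and ADK (2995 ± 200) at the top with overlapping ranges, then ADORA1 (1979 ± 64.0) and NT5E (1924 ± 101), again overlapping, then ADA (748 ± 10.9) and ADORA2B (326 ± 40.6). ENTPD1 (36.2 ± 3.58) stood above SLC29A2 (24.4 ± 7.12) there, and ADORA2A (1.51 ± 0.753) was lowest again. So WT 786-O cells held much more RNA of the A1 receptor than of either A2 receptor, and of ENT1 than of ENT2, in both batches.

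The first question was which members changed when a HIF subunit was tagged or added. A change was called at an adjusted p of at most 0.01 (edgeR's quasi-likelihood test, Benjamini-Hochberg over all genes of the batch) with a fold of at least 2, and it passed the test at that adjusted p with any fold. In bulk RNA, fewer cells that express a gene and less RNA per cell cannot be told apart. Against WT in batch 1 there were 4 calls of members over 8 comparisons: SLC29A2 lower in HIF-1β KIN, NT5E lower in HIF-2α KIN, ADORA2B higher in HIF-1α R30E and NT5E higher in HIF-2α. The share of all genes called was 1.38% in HIF-1β KIN, 4.14% in HIF-2α KIN, 2.61% in HIF-1α R30E and 5.72% in HIF-2α, with 1 of 9 members called in each. With any fold these backgrounds were 1.78%, 5.89%, 3.33% and 7.99%, and ADA in HIF-2α KIN was the only further member that passed. No member was called by edgeR in HIF-1α (background 3.79%, or 4.79% with any fold), HIF-1αDM (0.457%, 0.474%), HIF-2α R27E (0.496%, 0.521%) or HIF-2αDM (0.474%, 0.504%). At an unadjusted p under 0.05 there were 3, 1, 2 and 3 members in these 4 lines, and DESeq2 called 0 in each. The share of all genes at that unadjusted p was not computed. Here and below, such counts therefore cannot be read as a result about the members as a set.

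Against WT in batch 2 there were 2 calls over 4 comparisons, NT5E in HIF-2α and SLC29A1 in HIF-1α/2α, both higher. The background was 7.58% and 7.78% of genes called in these lines. It was 4.39% in HIF-1α and 3.49% in HIF-2α/1α, where edgeR and DESeq2 called no member and 5 and 7 members had an unadjusted p under 0.05. Smaller changes passed the test more often in this batch. With any fold, 4 members passed in HIF-1α (17.2% of all genes), 6 in HIF-2α/1α (16.7%), 5 in HIF-2α (27.4%) and 5 in HIF-1α/2α (27.8%). The median log2 change of the 9 members was 0.15 in HIF-1α, 0.24 in HIF-2α/1α, -0.30 in HIF-2α and -0.41 in HIF-1α/2α, beside 0.03, 0.03, 0.07 and 0.08 over all genes tested.

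**Figure D1:**
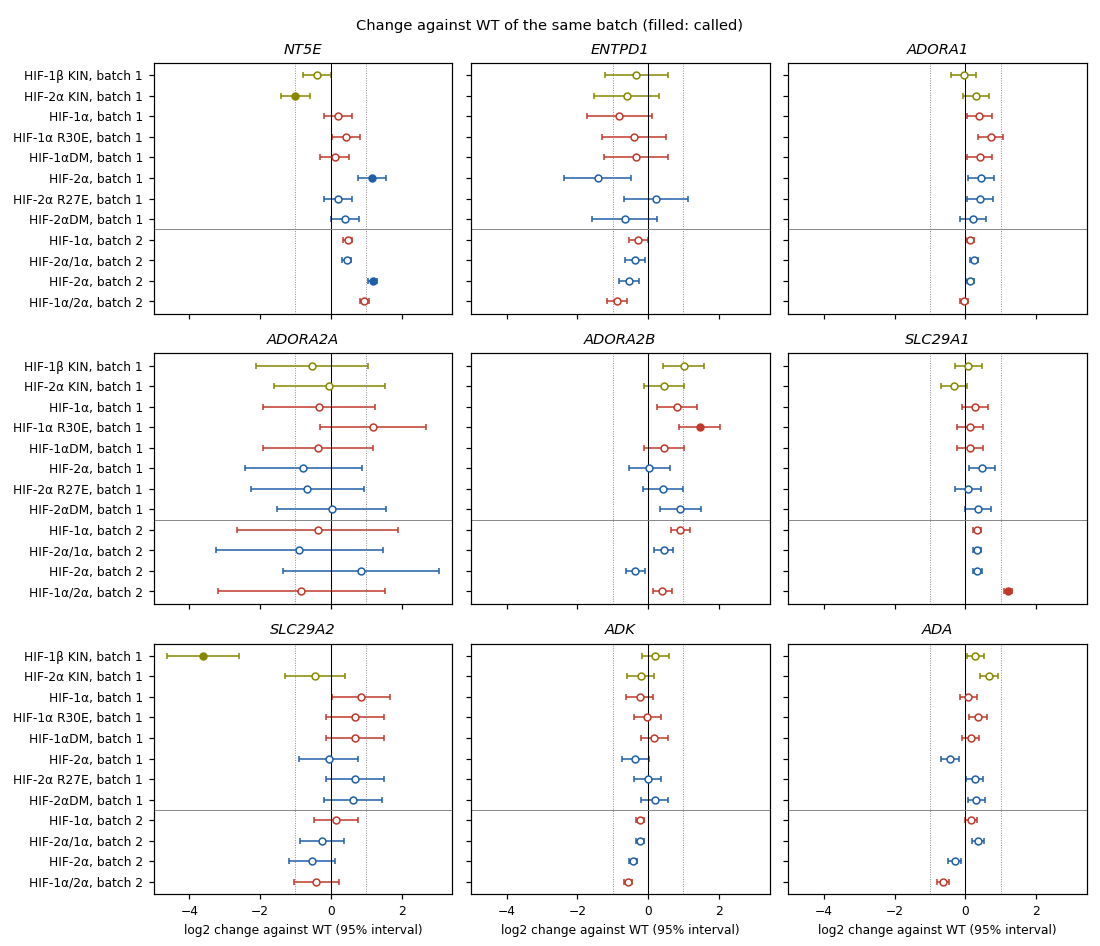
Log2 change of each member against WT of the same batch, by line, with 95% intervals from edgeR; filled points were called and dotted lines mark a 2-fold change. NT5E has filled points in HIF-2α of both batches (1.16 and 1.18) and in HIF-2α KIN (-1.0), and the SLC29A2 point of HIF-1β KIN (-3.61) stands farthest from 0.

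NT5E, which makes adenosine from AMP, was the member called in most lines. Its gene (ENSG00000135318.12) spans chr6:85449584-85495791 on the plus strand of hg38 and overlaps no other annotated gene. In batch 1 the 3 WT libraries held 2747, 2753 and 2970 normalized counts of NT5E, and the HIF-2α line held 5156, 7239 and 6583. NT5E in the HIF-2α line therefore lay above WT in every library, by 2.24-fold (log2 1.16, SE 0.196, 95% interval 0.76 to 1.57, adjusted p = 0.000102). In the HIF-2α KIN clone, where EPAS1 RNA, but by the paper's western blot not HIF-2α protein, was also lower than in WT, NT5E stood at 1071, 1620 and 1541, all under WT. That fall was 2.00-fold (log2 -1.0, SE 0.196, interval -1.40 to -0.60, adjusted p = 0.000843), at the edge of the fold limit. It was no longer called without HIF-2α KIN replicate 1 (log2 -0.84, adjusted p = 0.0126), WT replicate 3 (-0.96), HIF-1αDM replicate 3 (-0.99) or HIF-2α replicate 3 (-0.99).

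The other lines of batch 1 had no called change of NT5E. HIF-1β KIN held 2292, 2126 and 1988 normalized counts, under all WT libraries, with a log2 change of -0.40 that did not pass (adjusted p = 0.378). HIF-1α held 2714, 2456 and 4527, which overlapped WT. The mutants spread between 2701 (HIF-1αDM) and 4247 (HIF-1α R30E), under every HIF-2α library. Set directly against the DNA-binding mutant HIF-2α R27E (2884, 3703 and 3150), the HIF-2α line was 1.95-fold higher (log2 0.96, SE 0.195, adjusted p = 0.00134), which passed the test under the fold limit. It was called without HIF-2α R27E replicate 2 (1.1) or HIF-2α replicate 1 (1.09). Against the dimerization mutant HIF-2αDM (3387, 3784 and 4086) the difference was 0.75 (adjusted p = 0.0114). That missed the limit narrowly, and the difference passed under all 5 alternative settings of the fit, at 0.75 with the replicate block (adjusted p = 0.00147) and with an adjusted p of 0.000973 by DESeq2, and in 8 of the 27 fits without 1 library. Against HIF-1α it was 0.97 (adjusted p = 0.00185), and it was called without HIF-1α replicate 3 (1.29), the library at 4527, or without HIF-2α replicate 1 (1.1).

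In batch 2 every line held more NT5E than WT. The WT libraries stood at 6720, 7260 and 6575 normalized counts, and HIF-2α at 15995, 16561 and 14014. That rise was 2.27-fold (log2 1.18, SE 0.0638, adjusted p = 4.72e-20). HIF-1α/2α, which shares the IDR of HIF-2α, held 14469, 13654 and 11611, a log2 change of 0.95 (adjusted p = 6.59e-17) that reached 1.04 and was called without its replicate 3. The lines with the IDR of HIF-1α rose less, to 9247, 9561 and 9772 in HIF-1α (log2 0.48, adjusted p = 6.22e-08) and to 9530, 9135 and 9429 in HIF-2α/1α (0.45, adjusted p = 2.42e-07). The groups fell into 3 separate ranges: WT, the lines with the HIF-1α IDR, and the lines with the HIF-2α IDR.

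**Figure D2:**
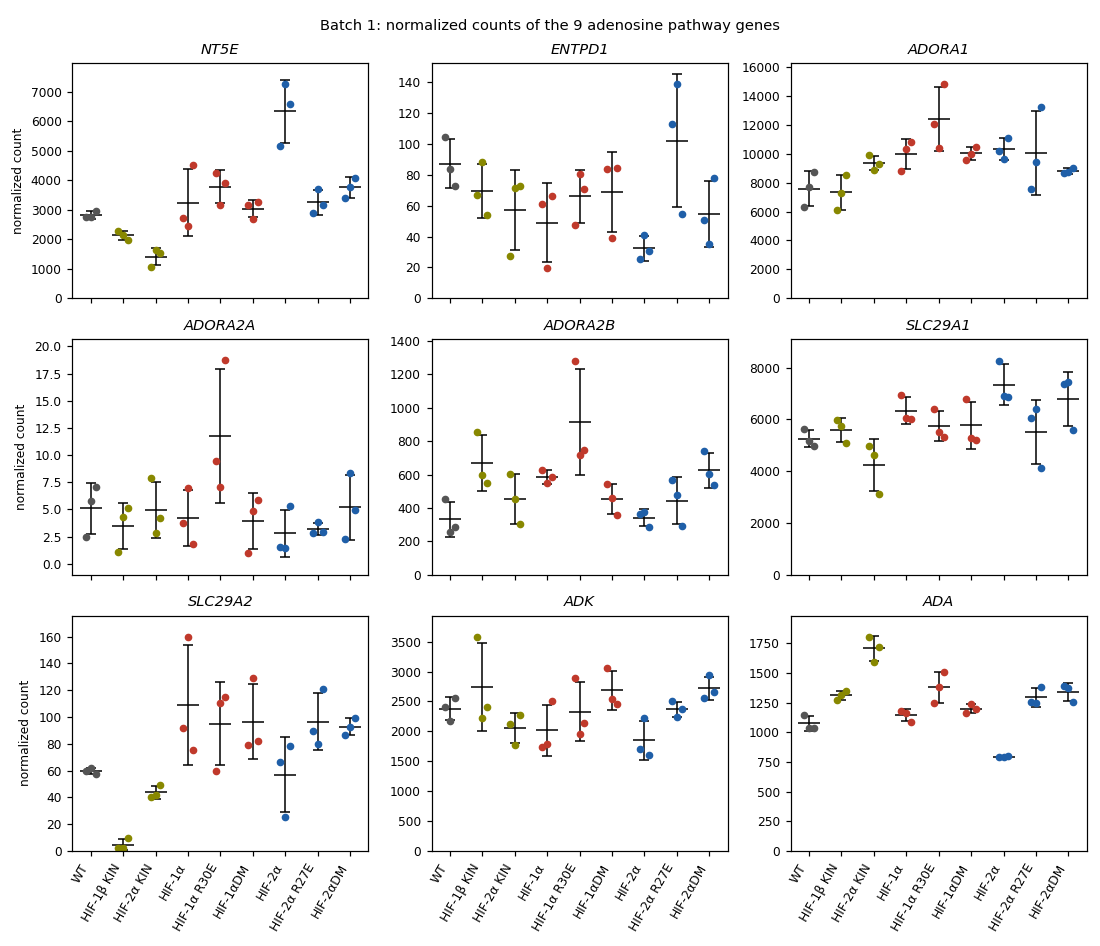
Normalized counts of each member in the 27 libraries of batch 1, by line, with a point per replicate, a dash at the mean and bars for the SD; grey is WT, olive the KIN clones, red lines with HIF-1α and blue lines with HIF-2α. NT5E in HIF-2α (5156 to 7239) lies above every other library, and SLC29A2 in HIF-1β KIN (2.13 to 9.40) lies below every other library.

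ENTPD1, the enzyme of the step before NT5E, stood at a far lower level, and its changes that passed were falls. Its gene (ENSG00000138185.20; chr10:95711779-95877266, plus strand) overlaps 3 annotated genes, 1 of them antisense. The unstranded counting could not place a read by strand, and reads that overlapped more than 1 gene were not counted. Batch 1 WT libraries held 104.9, 84.2 and 73.1 normalized counts, and the HIF-2α line held 25.3, 41.4 and 30.8, all below WT. The log2 change was -1.42 (SE 0.462) and did not pass (adjusted p = 0.039). The HIF-2α KIN clone, where NT5E was lower too, held 27.5, 71.4 and 72.7, also all below WT (-0.61, adjusted p = 0.467, not passed). Over the whole batch ENTPD1 ran from 19.4 in a HIF-1α library to 138.7 in a HIF-2α R27E library. HIF-2α R27E held 113.3, 138.7 and 54.9, above every HIF-2α library. The direct difference of HIF-2α from HIF-2α R27E was -1.65 (SE 0.464, adjusted p = 0.0224). It was called with the replicate number as a block (-1.67, adjusted p = 0.00748) and without HIF-2α R27E replicate 3 (-1.95, adjusted p = 0.00716).

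ENTPD1 was better resolved in batch 2, where WT held 447.8, 498.9 and 409.9 normalized counts. It fell in HIF-2α to 338.1, 250.5 and 340.4 (log2 -0.55, SE 0.139, adjusted p = 0.00138). A larger fall was measured in HIF-1α/2α, at 242.9, 241.5 and 253.8 (log2 -0.88, SE 0.141, adjusted p = 1.32e-06). Both groups lay below all WT libraries. The changes in HIF-1α (-0.27, adjusted p = 0.165) and HIF-2α/1α (-0.38, adjusted p = 0.0416) did not pass. So in both lines with the HIF-2α IDR, ENTPD1, which feeds AMP, fell while NT5E, which consumes it, rose. The lines with the HIF-1α IDR had the same directions at smaller sizes, with a pass for NT5E and none for ENTPD1.

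Among the receptors, ADORA2B was the one whose RNA differed most between HIF-1α and HIF-2α. It encodes the low-affinity A2B receptor (ENSG00000170425.3; chr17:15945130-15975746, plus strand, no overlapping gene). In batch 2, WT held 425.6, 526.4 and 538.2 normalized counts and HIF-1α held 855.5, 881.9 and 1067, all above WT. The rise was 1.88-fold (log2 0.91, SE 0.13, adjusted p = 2.86e-07), under the fold limit. HIF-2α held 388.6, 316.3 and 457.8, overlapping WT, with a log2 change of -0.36 that did not pass (adjusted p = 0.036). HIF-2α stood 2.41-fold under HIF-1α (log2 -1.27, SE 0.134, interval -1.54 to -1.0, adjusted p = 1.66e-10), a called difference with no overlap.

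The chimeras lay between these 2 lines. ADORA2B in HIF-2α/1α was at 704.9, 568.1 and 757.8 (log2 0.44 against WT, adjusted p = 0.00997). In HIF-1α/2α it was at 615.1, 541.3 and 816.8 (0.40, adjusted p = 0.013, not passed). The first passed in 8 of the 15 fits that left out 1 library of the batch.

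In batch 1, ADORA2B was called in 1 line, and that line carries the DNA-binding mutant of HIF-1α. WT held 450.9, 258.3 and 286.0 normalized counts, and HIF-1α R30E held 1282, 716.2 and 746.8, all above WT. This was 2.75-fold (log2 1.46, SE 0.283, interval 0.88 to 2.04, adjusted p = 0.00119). It was not called without HIF-1α R30E replicate 1 (1.14, adjusted p = 0.0185), WT replicate 2 (1.31, adjusted p = 0.0162) or WT replicate 3 (1.36, adjusted p = 0.0126). HIF-1α held 625.2, 547.0 and 582.8 (log2 0.82, adjusted p = 0.0749), and it passed with the replicate number as a block (0.86, adjusted p = 0.000647). Every HIF-1α R30E library lay above every HIF-1α library, but the difference of HIF-1α from HIF-1α R30E did not pass (-0.64, unadjusted interval -1.22 to -0.07, adjusted p = 0.28). Why the mutant line held more was not tested.

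Higher ADORA2B was also measured in some, but not all, lines with no added functional HIF. HIF-1αDM (541.8, 458.4 and 359.4, log2 0.45) overlapped WT and did not pass. The same held for HIF-2α R27E (564.5, 474.8 and 291.3, log2 0.42) and HIF-2α KIN (604.4, 452.5 and 304.2, log2 0.45). HIF-1β KIN held 857.8, 597.9 and 550.2 (log2 1.01, adjusted p = 0.0441), which was called with the replicate block (1.01, adjusted p = 0.000176) and by DESeq2 (1.03, adjusted p = 0.00878). HIF-2αDM held 739.1, 601.3 and 536.4 (0.91, adjusted p = 0.187), above all WT libraries. The HIF-2α line, at 363.3, 376.7 and 283.7, overlapped WT. Its difference from HIF-1α was -0.78 (adjusted p = 0.129), with no overlap, and passed with the replicate block (-0.79, adjusted p = 0.00249).

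ADORA1, the most abundant receptor RNA, moved little. The gene (ENSG00000163485.17; chr1:203090654-203167405, plus strand) overlaps 2 antisense genes. Batch 1 WT libraries held 6285, 7721 and 8711 normalized counts, and the highest group, HIF-1α R30E, held 12059, 10408 and 14796 (log2 0.71, SE 0.177, adjusted p = 0.0126, not passed). All 27 libraries lay within 2.42-fold of each other. In batch 2 the 15 libraries lay within 1.36-fold, and HIF-2α/1α at 7112, 6630 and 6584 was above WT at 5865, 5527 and 5830 (log2 0.24, SE 0.0581, adjusted p = 0.00141).

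ADORA2A, the receptor best known from immune cells and striatal neurons, was near the limit of detection. Its gene (ENSG00000128271.22; chr22:24417879-24442357, plus strand) overlaps an antisense gene and a read-through gene. A library of batch 1 held from 1 to 22 counts of ADORA2A, with 10 of 27 at or under 3 counts, and a library of batch 2 from 0 to 11, with 9 of 15 at or under 3. No difference was detectable at this depth, and no fold is given.

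Of the transporters, SLC29A1 gave the clearest response, and it came from a chimera. SLC29A1 (ENSG00000112759.18; chr6:44219553-44234142, plus strand, no overlapping gene) encodes ENT1, the main carrier of adenosine in most cells. In batch 2 it stood at 6925, 6982 and 6611 normalized counts in WT. It rose to 14697, 16370 and 16097 in HIF-1α/2α, by 2.30-fold (log2 1.20, SE 0.058, interval 1.08 to 1.32, adjusted p = 7.29e-22). The other lines rose by less and to much the same level: 8241, 8536 and 9152 in HIF-1α (log2 0.34, adjusted p = 8.57e-06), 8950, 7889 and 8972 in HIF-2α/1α (0.33, adjusted p = 1.41e-05), and 8963, 8575 and 8520 in HIF-2α (0.34, adjusted p = 2.93e-06). Every library of HIF-1α/2α lay above every library of the other groups.

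Batch 1 had no called change of SLC29A1. WT held 5622, 5162 and 4983 normalized counts, HIF-2α 8263, 6908 and 6846 (log2 0.48, adjusted p = 0.0793) and HIF-2α KIN 4976, 4637 and 3096 (-0.31, adjusted p = 0.326). The HIF-2α libraries all lay above WT and those of the KIN clone all below it. Neither passed.

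SLC29A2, which encodes ENT2, was almost lost from the HIF-1β KIN clone. The gene (ENSG00000174669.12) lies at chr11:66362521-66372214 on the minus strand and overlaps 1 antisense gene, B4GAT1-DT. WT libraries of batch 1 held 72, 64 and 82 counts of SLC29A2 and the HIF-1β KIN libraries 2, 2 and 11, of which 2 are at or under the floor of 3 counts. On the normalized scale these were 59.5, 61.9 and 57.6 against 2.15, 2.13 and 9.40. The drop was 12.2-fold (log2 -3.61, SE 0.495, interval -4.63 to -2.59, adjusted p = 2.51e-05), and it was called without each library in turn, at -4.72 without HIF-1β KIN replicate 3, the library with 11 counts. No other line of batch 1 came below 25.1 normalized counts. HIF-2α KIN held 40.6, 41.4 and 49.0, below WT in every library. HIF-1α held 91.6, 159.7 and 75.6, above it in every library, with a log2 change of 0.86 that did not pass (adjusted p = 0.23). In batch 2, where WT held 45.3, 79.2 and 55.1, the libraries ran from 29.7 to 79.2 and no line passed.

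**Figure D3:**
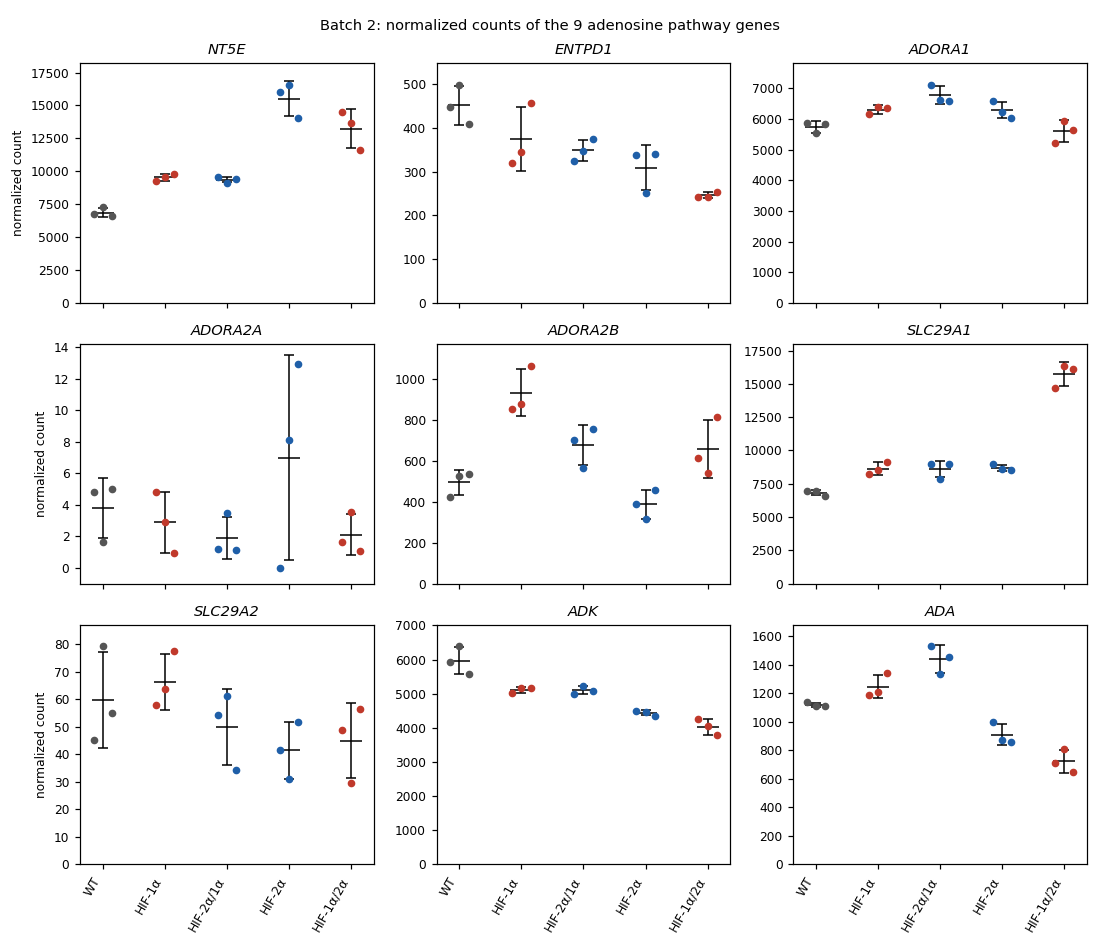
Normalized counts of each member in the 15 libraries of batch 2, by line, with a point per replicate, a dash at the mean and bars for the SD; grey is WT, red the lines with the structured domains of HIF-1α and blue those with the structured domains of HIF-2α. SLC29A1 in HIF-1α/2α (14697 to 16370) stands apart from all other groups, and ADK lies below WT (5589 to 6382) in every line.

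ADA, which removes adenosine by deamination, moved opposite to NT5E in the HIF-2α KIN clone and in the HIF-2α line of batch 2. The gene (ENSG00000196839.13; chr20:44584896-44652252, minus strand) overlaps PKIG on the other strand. Unstranded counting could not place a read by strand, and reads that overlapped both genes were not counted. In batch 1 WT held 1149, 1035 and 1040 normalized counts of ADA and HIF-2α held 791.4, 794.7 and 801.3, with no overlap (log2 -0.43, SE 0.119, adjusted p = 0.0138, not passed). The HIF-2α KIN clone held 1804, 1597 and 1722, the highest group, and rose by 1.59-fold (log2 0.67, SE 0.119, adjusted p = 0.000288). Every HIF-2α library lay below HIF-2α R27E (1253, 1243 and 1385) and below HIF-2αDM (1390, 1375 and 1254). HIF-2α was lower than HIF-2α R27E by a log2 difference of -0.70 (adjusted p = 0.000191) and lower than HIF-2αDM by -0.75 (adjusted p = 6.86e-05). It was also lower than HIF-1α (1181, 1162 and 1086) by -0.52 (adjusted p = 0.00658), a difference that passed in 17 of the 27 fits without 1 library.

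Batch 2 gave the same direction for ADA in HIF-2α. WT held 1137, 1109 and 1109, and ADA fell to 996.4, 872.8 and 862.7 in HIF-2α (log2 -0.30, adjusted p = 0.0075) and to 713.7, 810.1 and 645.4 in HIF-1α/2α (-0.63, adjusted p = 1.38e-07). In HIF-2α/1α it rose to 1529, 1337 and 1458 (0.36, adjusted p = 0.00131). HIF-1α held 1190, 1210 and 1343, above all WT libraries, with a change of 0.16 that did not pass (adjusted p = 0.223). The lines with the HIF-2α IDR therefore lay below WT and those with the HIF-1α IDR above it. The fall in HIF-2α passed in 10 of the 15 fits without 1 library.

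ADK, the kinase that returns adenosine to AMP, fell in every line of batch 2. Its gene (ENSG00000156110.14; chr10:74151202-74709963, plus strand) overlaps 8 annotated genes, 4 of them antisense. WT held 5924, 6382 and 5589 normalized counts. HIF-1α/2α held the least, 4261, 4040 and 3786 (log2 -0.57, adjusted p = 8.71e-11), followed by HIF-2α at 4501, 4469 and 4357 (-0.43, adjusted p = 9.06e-08). ADK stood at 5022, 5170 and 5164 in HIF-1α (-0.22, adjusted p = 0.00398) and at 4989, 5226 and 5080 in HIF-2α/1α (-0.23, adjusted p = 0.00323). The falls ran from 1.17-fold to 1.48-fold, and the 2 smaller ones passed in 10 and 12 of 15 fits without 1 library. In batch 1 no ADK change passed. WT held 2414, 2172 and 2550 there, HIF-2α held 1711, 2219 and 1611 (-0.37, adjusted p = 0.217), and the 27 libraries ran from 1611 to 3577.

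The mutants of batch 1 ask whether a change needs DNA binding or dimerization. No member was called by edgeR in the 4 direct comparisons, while DESeq2 called ENTPD1 and NT5E between HIF-2α and HIF-2α R27E and none in the other 3. The share of all genes called was 1.75% for HIF-1α against HIF-1α R30E, 1.37% against HIF-1αDM, 3.63% for HIF-2α against HIF-2α R27E and 3.96% against HIF-2αDM, and 2, 1, 4 and 4 members had an unadjusted p under 0.05. With any fold the backgrounds were 2.18%, 1.6%, 4.99% and 5.43%, and 0, 0, 2 and 1 members passed. The members that passed were NT5E and ADA against HIF-2α R27E and ADA against HIF-2αDM. In both mutants ADA lay above all WT libraries, and in HIF-2α below them.

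The isoforms were also compared directly. In batch 1 no member was called between HIF-2α and HIF-1α by edgeR or DESeq2 (background 2.4%, 4 members at an unadjusted p under 0.05), and NT5E (higher in HIF-2α) and ADA (lower) passed with any fold, beside 3.07% of all genes. In batch 2, ADORA2B was called (3.78% of genes were). NT5E (log2 0.70, adjusted p = 1.64e-12), ADA (-0.45, adjusted p = 8.53e-05) and ADK (-0.20, adjusted p = 0.00835, passed in 7 of 15 fits without 1 library) also passed, beside 17.6% of all genes. NT5E and ADA thus had the same direction between isoforms in both batches.

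The 4 lines of batch 2 cross the structured domains with the IDR. The effect of each was fitted as the mean of the lines that carry the HIF-2α version minus the mean of those that carry the HIF-1α version. Each construct was 1 group, so a trait or transgene level of a line and an effect of its domains cannot be told apart. HIF1A averaged 13161 normalized counts in HIF-1α and 9625 in HIF-2α/1α. EPAS1 averaged 42541 in HIF-2α and 51430 in HIF-1α/2α. A chimera carries only part of each coding sequence. For the IDR, 7 members passed with any fold beside 24.7% of all genes. NT5E (log2 0.60, SE 0.0446, adjusted p = 2.35e-15) and SLC29A1 (0.44, adjusted p = 2.39e-12) were higher with the HIF-2α IDR. ADA (-0.72, SE 0.0636, adjusted p = 4.83e-13), ADORA2B (-0.65, SE 0.0934, adjusted p = 1.52e-07), ENTPD1 (-0.39, adjusted p = 0.00176), ADK (-0.27, adjusted p = 9.45e-07) and ADORA1 (-0.14, adjusted p = 0.00621, passed in 9 of 15 fits without 1 library) were lower. ADA had the largest of these differences. None reached 2-fold, so no member was called by edgeR or DESeq2 (background 4.41%, 7 members at an unadjusted p under 0.05).

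The structured domains gave 3 differences that passed, beside 11.4% of all genes. ADORA2B (-0.62, SE 0.0934, adjusted p = 1.84e-06) and SLC29A1 (-0.43, adjusted p = 2.21e-11) were lower with those of HIF-2α, and ADA was higher (0.27, adjusted p = 0.00138). Again none was called (background 1.04%, 5 members at an unadjusted p under 0.05, 0 by DESeq2). For ADORA2B the effects of both regions of the protein were alike in size and sign. For NT5E the structured domains made a difference of 0.10 (interval 0.01 to 0.19) that did not pass (adjusted p = 0.119).

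SLC29A1 was the only member for which the effect of the IDR differed between the structured domains past the test. With those of HIF-1α, the HIF-2α IDR took the gene from HIF-1α to HIF-1α/2α (8241 to 9152 against 14697 to 16370 normalized counts). With those of HIF-2α, the levels were alike (7889 to 8972 in HIF-2α/1α against 8520 to 8963 in HIF-2α). The IDR, structured-domain and interaction values of SLC29A1 thus all rest on 1 line, HIF-1α/2α. In that line 9 of 47 other genes within 2 Mb, at a mean of at least 50 normalized counts, were called against WT. The share over all genes tested, those of a lower mean included, was 7.78%, so it is not a matched background. A trait of the line or region was not tested. The interaction was -0.85 (SE 0.0812, interval -1.01 to -0.68, adjusted p = 1.57e-10). It stayed under 2-fold, and no other member passed, so none was called by edgeR or DESeq2 (background 1.18%, or 5.37% with any fold, with 3 members at an unadjusted p under 0.05).

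**Figure D4:**
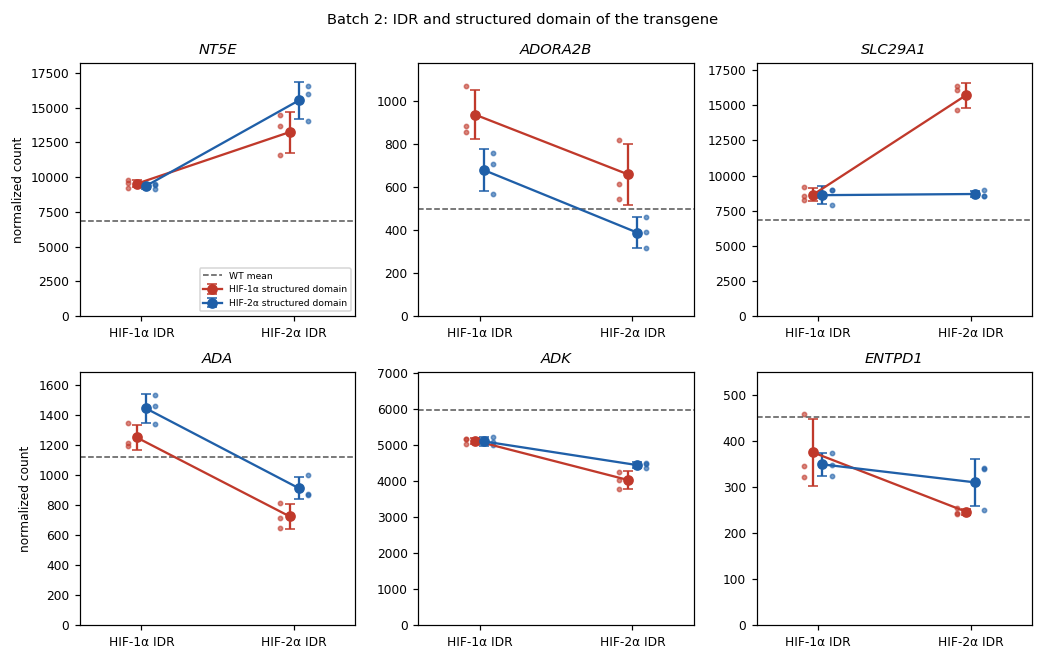
Normalized counts in batch 2 by the IDR (x axis), with a line for each kind of structured domain, points per replicate and a dashed line at the WT mean. Both lines for NT5E rise from the HIF-1α to the HIF-2α IDR, those for ADA fall, and those for SLC29A1 part, with HIF-1α/2α at 14697 to 16370 and HIF-2α at 8520 to 8963.

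HIF-1α and HIF-2α were each set against WT in both batches, and a joint fit tested whether the response differed. For HIF-1α 1 of 26763 genes was called (0.00374%), and for HIF-2α none was (0%). No member was called or passed by edgeR or DESeq2, and 1 member had an unadjusted p under 0.05 in each, namely ADORA1 (-0.42 for HIF-1α, and -0.46 for HIF-2α with an adjusted p of 0.307). NT5E changed by 1.16 and 1.18 in HIF-2α, and ADORA2B by 0.82 and 0.91 in HIF-1α.

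For the 4 members with a call against WT, the genes with the most similar pattern were sought among 12462 genes over all 42 libraries, as Pearson's r of log2 values after the mean of each batch was removed. These libraries share their lines, so r is a description only. NT5E was closest to PLXNA2 (r = 0.935), TMEM47 (0.909) and TMEM158 (0.907). SLC29A2 was closest to NID2 (0.88), FSD1 (0.867) and LOXL1-AS1 (0.867). ADORA2B was closest to TSPAN5 (0.821), ARSJ (0.764) and PIK3AP1 (0.727). SLC29A1 was closest to BOLA3-AS1 (0.808), BANF1 (0.808) and CDCP1 (0.803).

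Around the members, a list of 51 other purinergic genes held the remaining nucleotidases, transporters, receptors and purine enzymes. Of these, 42 passed the filter in batch 1 and 44 in batch 2. Against WT there were 15 calls over the 8 comparisons of batch 1: 5 in HIF-1α, 4 in HIF-2α, 2 each in HIF-2α KIN and HIF-1α R30E and 1 in HIF-2α R27E, all higher, and 1 in HIF-1β KIN, lower. Without WT replicate 3 the count was 8. Of all genes tested, 3.79% were called in HIF-1α, 5.72% in HIF-2α, 4.14% in HIF-2α KIN and 2.61% in HIF-1α R30E. The share was 0.496% in HIF-2α R27E and 1.38% in HIF-1β KIN. In batch 2 there were 29 calls over 4 comparisons, 27 of them higher: 7 higher in HIF-1α, 6 higher in HIF-2α/1α, 8 higher and 1 lower in HIF-2α, and 6 higher and 1 lower in HIF-1α/2α. The share of all genes called in this batch was 4.39% in HIF-1α, 3.49% in HIF-2α/1α, 7.58% in HIF-2α and 7.78% in HIF-1α/2α. Calls over all genes were also mostly higher, with 1121 higher and 139 lower in HIF-1α and 857 and 146 in HIF-2α/1α. For HIF-2α they were 1566 and 611, and for HIF-1α/2α 1465 and 770. In batch 1 they were 766 and 121 in HIF-1α and 884 and 455 in HIF-2α. The median log2 change of the list was 0.31 in HIF-1α and 0.38 in HIF-2α of batch 1, and 0.23 and 0.57 in batch 2, beside -0.03, -0.09, 0.03 and 0.07 over all genes.

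SLC29A4, a relative of the adenosine carriers, which encodes the monoamine and adenosine transporter PMAT, rose from 670 ± 151 normalized counts in WT to 8391 ± 2526 in HIF-1α (log2 3.65, adjusted p = 5.74e-09) and 7208 ± 1005 in HIF-2α (3.43, adjusted p = 6.68e-09) of batch 1. In batch 2 it rose from 272 ± 48.3 to 2429 ± 215 (3.16, adjusted p = 1.74e-26) and 2618 ± 172 (3.27, adjusted p = 1.65e-27). It was also called in HIF-2α KIN (1.99), HIF-1α R30E (1.89) and HIF-2α R27E (1.42), so part of the list's calls came from clones and mutants. The lowest libraries of HIF-1β KIN (883), HIF-1αDM (1001) and HIF-2αDM (1400) also lay above the highest WT library (785). Both chimeras of batch 2 stood above WT too, at 2573 ± 281 in HIF-2α/1α and 1707 ± 299 in HIF-1α/2α. SLC29A3, the lysosomal ENT3, rose in HIF-1α of both batches (1.36 and 1.25), in HIF-2α/1α (1.02), in HIF-2α KIN (1.61) and in the DNA-binding mutant HIF-1α R30E (1.35). In batch 1 it averaged 945 ± 308 in HIF-1α and 939 ± 215 in HIF-1α R30E against 368 ± 54.7 in WT. All libraries of HIF-1αDM, HIF-2α, HIF-2α R27E and HIF-2αDM also lay above the highest WT library (416) there.

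Enzymes that make or spend nucleotides outside the cell formed another group. ALPL, a phosphatase that can also make adenosine from AMP, rose with HIF-2α from 4.86 ± 4.32 to 129.9 ± 32.1 normalized counts in batch 1 (log2 4.66, adjusted p = 0.000647) and from 2.97 ± 1.70 to 100.6 ± 33.0 in batch 2 (5.00, adjusted p = 6.40e-12), where both chimeras (2.87 in HIF-2α/1α, 4.29 in HIF-1α/2α) were also called, as was HIF-1α (2.13). BST1 (CD157), which acts on NAD, rose in HIF-1α by 2.72 in batch 1 and 2.26 in batch 2. Its change in HIF-2α was 2.27 in batch 1 (adjusted p = 0.0109, not passed) and 2.20 in batch 2, and that in HIF-1α/2α was 2.60. ENPP3 (CD203c), which cuts ATP to AMP, rose in HIF-1α of batch 2 from 30.6 ± 2.88 to 191.9 ± 27.9 (2.65, adjusted p = 2.65e-11), and was also called in the other 3 lines of that batch, at 1.22 in HIF-2α, 1.64 in HIF-2α/1α and 2.67 in HIF-1α/2α. Inside the cell, AMPD3, which deaminates AMP, rose in HIF-1α of both batches (1.09 and 1.20) and in HIF-2α (1.01) and HIF-1α/2α (1.44) of batch 2, and NT5M, the mitochondrial nucleotidase, rose in HIF-2α (1.54 and 1.13) and HIF-1α/2α (0.95). In batch 1 NT5M averaged 371 ± 24.9 in HIF-2αDM, 302 ± 11.5 in HIF-1αDM and 357 ± 68.6 in HIF-1α. All libraries of these lines lay above WT (210 ± 33.6), while HIF-1α R30E and HIF-2α R27E overlapped it. Of the ATP receptors, P2RX6 rose in HIF-1α (1.76 and 1.59) and HIF-2α (1.09 and 1.53) of both batches and in HIF-2α/1α (1.59). The mutants HIF-1α R30E (0.96, adjusted p = 0.0164) and HIF-1αDM (1.11, adjusted p = 0.0202) had P2RX6 above WT without passing. P2RY2 was called in HIF-1α/2α alone of the lines (1.31, adjusted p = 2.41e-15).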

How the data were processed

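Poly-A RNA of 42 libraries of 786-O cells was analysed, 27 in batch 1 and 15 in batch 2, grouped by the labels' titles with 3 libraries per group, which the study describes as biological replicates. Per the labels and the study's methods, the authors aligned reads to hg38 with STAR (2.7 in the submitters' notes), used SAMtools 1.9, and deposited raw counts per gene from HTSeq (0.11.1) in union mode over GENCODE genes. Counting was unstranded and used uniquely mapping reads, and reads that overlap more than 1 gene were not counted. The study used DESeq2 for its own tests. Batch 1 RNA came from RNeasy columns and TruSeq-based libraries, and batch 2 RNA from TRIzol and NEBNext libraries, so batch, extraction and kit cannot be told apart.

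Each batch was fitted once over all its libraries with edgeR 4.0.16 (R 4.3.3): TMM scaling, a filter that kept genes whose normalized counts averaged 0.5 or more, quasi-likelihood tests, and Benjamini-Hochberg adjusted p-values over all genes tested. The joint test of the response between batches used the 18 libraries of WT, HIF-1α and HIF-2α. A normalized count is the count scaled by TMM to the mean effective library size of its batch. TMM factors ran from 0.822 to 1.16 in batch 1 and from 0.963 to 1.03 in batch 2, and median depth was 66795104 and 90438640 counts. Intervals are 95% and, like the p-values, measure the spread between these libraries. No row lacked a gene name. Alternatives were DESeq2 1.42.0, RLE size factors, no filter, only the compared groups, the replicate number as a block, no fold limit, and leaving out each library.

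The members and the lists were chosen with earlier results of these data known. Named genes were the 9 members, HIF1A and EPAS1 as checks of the lines, other purinergic genes called in HIF-1α or HIF-2α with the same sign in both batches or otherwise among the 4 with the largest called change at a mean of at least 50 normalized counts, and the 3 genes most like each member with a call. Gene positions came from GENCODE v44 on hg38, a later release than the one counted, and promoter windows from RefSeq.

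The replicate numbers may pair libraries. Deviations of same-numbered libraries from their group means correlated at 0.242 on average over 39 pairs in batch 1, and every pair exceeded 0.1 in 7 of 13 comparisons. In batch 2 the mean was 0.00327 and no pair of 15 exceeded 0.1. The source of the correlation is the data, since no label says what a number shares. For those 7 comparisons, a blocked value that changes whether the test was passed stands beside the result. Changes under the block in other comparisons are given with the alternatives.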

Additional observations from a re-analysis of the deposited data

Results flagged for a closer look

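The interaction of SLC29A1 in batch 2 is given here because the effect of the IDR under one kind of structured domain differed from its effect under the other by a test of that difference. It was -0.8486 on the log2 scale (SE 0.0812, edgeR's adjusted p = 1.57e-10), coded as the IDR effect with the structured domains of HIF-2α minus that with those of HIF-1α. All 3 HIF-1α/2α libraries lay above the other 12 libraries of the batch. No group of these data holds 4 or more libraries, so single libraries far from their group were not tested for.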

How the results depend on the processing

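The 45 log2 changes of members that passed were recomputed under the other settings and without each library of the compared groups. Of these values, 493 kept their direction, their pass and any call. Another 68 lost the pass or the call, and none was reversed. Fits without a library of another group are not in this tally, and some lost a call too. An example is NT5E in HIF-2α KIN without HIF-1αDM replicate 3. Of the 162 changes of members that did not pass, 38 changed sign under at least 1 alternative. Of the counts of calls, 263 stayed within 1.5 times and 19 did not. Without any fold limit the members called against WT in batch 2 went from 2 to 20, those between HIF-2α and HIF-1α from 0 to 2 in batch 1 and from 1 to 4 in batch 2, those of the functional lines against mutants from 0 to 3, those of the IDR, the structured domains and their interaction from 0 to 7, 3 and 1, and the other purinergic genes of batch 2 from 29 to 67. The functional lines against mutants gave 2 calls with DESeq2, and 1 each with RLE size factors, with no filter and with the replicate block, where the main count was 0.

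Leaving out 1 library at a time, the members called against WT ranged from 2 to 4 in batch 1 (2 without WT replicate 3) and from 2 to 3 in batch 2. The functional lines against mutants ranged from 0 to 1 (1 without HIF-2α replicate 1, HIF-2α R27E replicate 2 or HIF-2α R27E replicate 3), as did HIF-2α against HIF-1α in batch 1 (1 without HIF-1α replicate 3 or HIF-2α replicate 1), and the same comparison in batch 2 stayed at 1. The other purinergic genes ranged from 8 to 15 in batch 1 (8 without WT replicate 3) and from 26 to 30 in batch 2. The response between batches gave 0 calls of members under every alternative run. NT5E in HIF-2α KIN, at the fold limit, was also under it with DESeq2 (-0.96), RLE size factors (-0.96) and only the compared groups (-0.98). Why these counts moved was not tested.

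Under the replicate block, members called against WT numbered 5 in batch 1 (main 4, with ADORA2B in HIF-1β KIN added) and 2 in batch 2 (main 2), and the other purinergic genes 21 and 29. The block also let 13 further changes pass with no call, among them ADORA1 in HIF-1α R30E (0.71, adjusted p = 0.000288) and, in HIF-2α of batch 1, SLC29A1 (0.48, adjusted p = 0.00561) and ADA (-0.43, adjusted p = 0.00913). ADORA2B passed in HIF-2αDM (0.93, adjusted p = 0.00134) and between HIF-2α and HIF-2αDM (-0.86, 0.00058). In batch 2 it passed in HIF-2α (-0.37, 0.00237) and HIF-1α/2α (0.39, 0.000947). The rest were the structured-domain effect of ADORA1 (0.14, 0.00599), the interaction of NT5E (0.255, 0.00853) and the HIF-2α response of ADORA1 between batches (-0.47, 0.00572), beside those given above. It lost no call. Depth limits ADORA2A throughout and SLC29A2 in HIF-1β KIN.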

Other observations

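HIF1A itself was higher in the HIF-2α lines, which carry no HIF-1α transgene. It averaged 910 ± 280 normalized counts against 242 ± 13.5 in WT of batch 1 (log2 1.91, edgeR's adjusted p = 1.37e-06) and 936 ± 144 against 293 ± 28.1 in batch 2 (1.67, adjusted p = 4.25e-21), higher in 6 of 6 libraries. The mutants HIF-2α R27E (212 ± 55.2) and HIF-2αDM (193 ± 15.0) did not pass against WT. EPAS1 in turn was higher in HIF-1α of batch 2 by 0.37 (adjusted p = 6.29e-07) and at 0.66 in batch 1 did not pass (adjusted p = 0.035).

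The genes around the called members were looked at after the calls were seen. Only genes with a mean of at least 50 normalized counts were taken. The shares over all genes tested include genes under that mean, so they are not a matched background. Within 2 Mb of SLC29A1, 47 other genes had a median log2 change of 0.33 in HIF-1α/2α, beside a median of 0.14 over 661 genes of chromosome 6. Of the 47 genes, 9 were called, beside 7.78% of all genes tested. Within 2 Mb of SLC29A2, 107 genes had a median of -0.05 in HIF-1β KIN, 3 of them called (1.38% of all genes tested were). Around NT5E, 7 genes had a median of -0.23 in HIF-2α KIN and -0.03 in HIF-2α of batch 1, and 8 had -0.10 in HIF-2α of batch 2. Around ADORA2B, 28 genes had a median of -0.02 in HIF-1α R30E, 1 of them called (2.61% of all genes tested were). What these values share with the members was not tested.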
